A study of Mus musculus with 6 samples.

Results

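The autophagy machinery is the set of proteins that build a double membrane around cytoplasmic cargo and deliver it to lysosomes. A list of 38 mouse genes was chosen by name, and 37 of them were measured by a probe set annotated to exactly 1 gene, out of 18193 genes in all. Where a gene had several such probe sets, the one with the highest mean log2 intensity stands for it, and Optn, a ubiquitin-binding cargo receptor gene, was not analysed here. The arrays came from RAW264.7, a transformed mouse monocyte-macrophage line that can form osteoclast-like cells under RANKL and that the labels call osteoclastic. Cells were kept for 24 hours in low-sodium medium (120 mmol/l, 3 arrays) or in normal-sodium medium (137 mmol/l, 3 arrays), with the osmolality kept at 290 mOsm/l by mannitol. Cytokines of osteoclast formation, M-CSF (10 ng/ml) and RANKL (30 ng/ml), are worded beside low sodium, and the protocol does not settle whether the normal-sodium cells received them. The labels give 4 biological replicates in each medium, of which 3 were analysed here. The comparison asked how expression in these cells differed between low and normal extracellular sodium. If only the low-sodium cells received the cytokines, sodium and cytokines cannot be told apart in any difference below.

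In autophagy, the ULK1 kinase complex starts the process, and a lipid kinase complex around Becn1 and Pik3c3 marks the site where the membrane grows. Ubiquitin-like conjugation reactions then attach LC3 and GABARAP proteins (the ATG8 family) to that membrane, and cargo receptors such as p62, the product of Sqstm1, bind both the cargo and these proteins. In macrophages the pathway clears microbes and damaged organelles, and in osteoclasts several conjugation proteins also take part in the secretion of lysosomal content at the ruffled border.

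All values below are log2(intensity + 1) of 1 probe set, and differences are low minus normal sodium on that scale. Every array value of the 37 genes lay between 7.19 and 13.88, above the median of 6.03 over all tested probe sets, and all 37 belonged to the brighter 50% of genes. In both media the third array differed from the others in its controls: spiked labelling transcripts averaged 10.21 in replicates 1 and 2 but 8.36 in replicate 3, and the median intensity of an array was between 47.8 and 74.5. Differences are therefore also given per replicate number. A pair of limma fits was read, both adjusted over all 18193 genes with the Benjamini-Hochberg method and a threshold of 0.05. The two-group fit has the medium as its only term and gives the standard errors (SE) below. The replicate-3 fit adds a term for replicate 3 and a trended prior, was known from earlier counts of these data to call the most genes among fits of all 6 arrays, and is the fit to which "rose" and "fell" refer. Among marker genes of other cell types, 1 of 6 fibroblast, 1 of 4 lymphocyte and 2 of 6 epithelial genes reached that median in at least 1 medium. Macrophage markers were above that probe set median in 8 of 8 genes. Their summed log2 intensity was 105.1 to 106.5 on low-sodium arrays and 102.6 to 105.0 on normal-sodium arrays. Of the 8, 2 rose (Adgre1 by 0.96 and Fcgr3 by 0.90) and 6 did not pass. Among the latter, Csf1r was lower in low sodium in each replicate number, with a difference of -0.16. Osteoclast markers were above it in at least 1 medium in 7 of 8 genes, and 5 of the 8 rose, beside 3.78% of all genes called higher in that fit. Their sum was 58.7 to 67.6 on low-sodium arrays and 46.3 to 59.3 on normal-sodium arrays, and Calcr, the calcitonin receptor gene, was dim in both media (means of 3.64 in low and 3.09 in normal sodium). The part of this shift in the differences below was not tested, and in bulk RNA a change in the number of cells of a type cannot be told apart from a change in RNA per cell.

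Among the autophagy genes, the cargo receptor genes Sqstm1 and Nbr1, the LC3 gene Map1lc3a and the membrane protein gene Vmp1 rose in low sodium, and Uvrag, which encodes a partner of Becn1, fell. The other 32 genes did not pass the replicate-3 fit, which called 5 of 37 (13.5%) beside 7.6% of all genes (3.78% higher and 3.81% lower) and 14.8% of the brighter 50% of genes. With a constant prior the same model called 0 of 37, beside 0.011% of all genes, and with replicates 1 and 2 alone and a trended prior 7 passed (18.9%; 6 higher, 1 lower), beside 14.9% of all genes (7.27% higher and 7.6% lower) and 28.3% of the brighter 50%. By the two-group limma fit 0 of 37 passed, with 4 at an unadjusted p under 0.05 (Sqstm1, Nbr1 and Calcoco1 higher, Atg4d lower), beside 0.0055% of all genes called (8.15% at an unadjusted p under 0.05, 4.29% higher and 3.86% lower). The low-sodium and normal-sodium arrays did not overlap in 8 of 37 genes (21.6%), 6 of them higher and 2 lower in low sodium, beside 17.5% of all genes (8.44% higher and 9.07% lower) and 26.3% of the brighter 50%. The direction was the same in all 3 replicate numbers for 18 of 37 genes (48.6%; 14 higher and 4 lower), beside 40.7% of all genes (20.0% higher and 20.7% lower) and 54.7% of the brighter 50%. Split by direction, the same sign in all 3 numbers was found higher in 37.8% of the members and 25.2% of the brighter 50% of genes, and lower in 10.8% of the members and 29.5% of those genes. Groups that did not overlap were higher in 6 of 37 members and 1090 of the 9097 brighter genes, and lower in 2 of 37 members and 1304 of those genes (5.41% and 14.3%). Calls of the replicate-3 fit were higher in 10.8% of the members and 7.31% of those genes, and lower in 2.7% of the members and 7.45% of those genes. These shares were not tested.

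**Figure D1:**
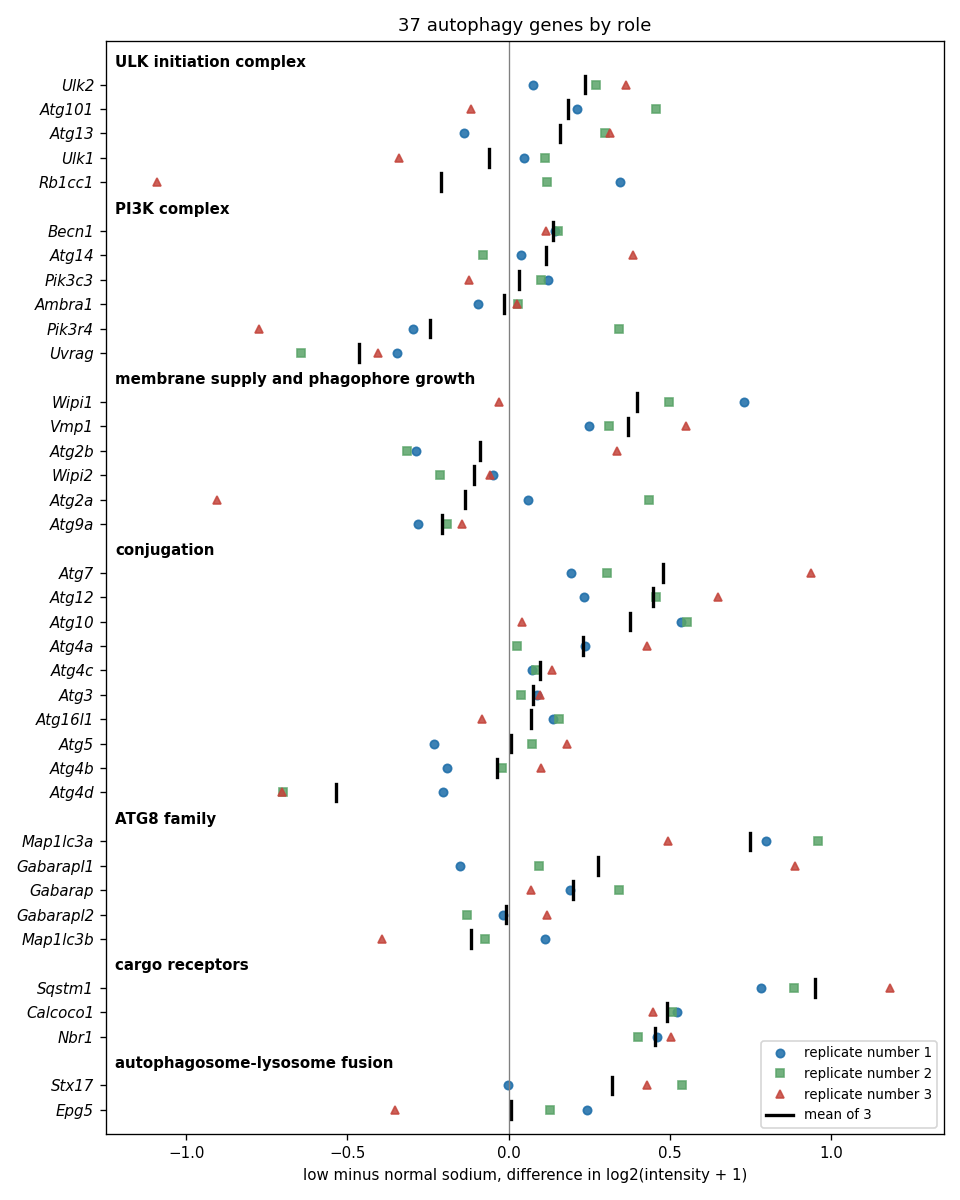
Low minus normal sodium difference in log2(intensity + 1), on the horizontal axis, for each of 37 autophagy genes grouped by role; points are the differences within replicate numbers 1, 2 and 3 and the black bar is their mean. The 3 cargo receptor genes lie to the right of 0 in every replicate number, whereas most other roles hold genes on both sides of it.

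Among the roles of the listed genes, cargo receptors, with 3 genes measured and Optn not analysed, had the clearest separation of the media. Sqstm1 measured 13.85, 13.88 and 13.67 on the low-sodium arrays of replicates 1, 2 and 3, against 13.07, 12.99 and 12.48 on the normal-sodium arrays. Every low-sodium array was above every normal-sodium array, and the gap was widest in replicate 3. Sqstm1 averaged 13.80 ± 0.12 in low sodium and 12.85 ± 0.32 in normal sodium (SD, n = 3 each), a 1.93-fold rise with a log2 difference of 0.95 ± 0.22 (SE). Its adjusted p in limma was 0.00159 in the replicate-3 fit, with a range of 6e-05 to 0.135 over the alternatives to that fit, and 0.417 in the two-group fit. A probe set is called bright where its mean over the 6 arrays was at or above 6.03, the median over all tested probe sets. The 1 other bright probe set of Sqstm1 differed by 0.94. It averaged 6.95 in low sodium and 6.02 in normal sodium, so it lay close to that median.

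Nbr1 encodes a receptor related in domain structure to p62. It measured 11.53, 11.43 and 11.59 in low sodium and 11.07, 11.03 and 11.09 in normal sodium. The groups did not overlap, and the differences of 0.46, 0.40 and 0.50 in replicates 1, 2 and 3 were the most even among the 5 genes called. Nbr1 rose 1.37-fold (log2 difference 0.45 ± 0.15 SE), with an adjusted p in limma of 0.00986 in the replicate-3 fit and 0.571 in the two-group fit. The call was lost when any 1 array of replicates 1 and 2 was left out (adjusted p of 0.0527 to 0.0761), while the difference stayed between 0.43 and 0.49. Its 1 other bright probe set differed by 0.34.

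Calcoco1, known as a receptor for autophagy of the endoplasmic reticulum and the Golgi, had the same direction without passing. It measured 8.19, 8.18 and 8.47 in low sodium, against 7.67, 7.68 and 8.02 in normal sodium. These groups did not overlap either, and each low-sodium array exceeded the normal-sodium array of its number by 0.45 to 0.52. The log2 difference was 0.49 ± 0.20 (SE), with an adjusted p in limma of 0.0985 in the replicate-3 fit and 0.613 in the two-group fit. The other probe set of Calcoco1 was not bright (means of 4.84 in low and 5.04 in normal sodium) and differed by -0.20.

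The sequences around the annotated starts of the 8 members whose groups did not overlap are shown, because these are the genes whose arrays separated the media. They are RefSeq windows of GRCm38.p6 from 250 bases before to 50 bases after a gene start, written along the gene's strand, and 31 of the 38 listed genes matched such a window by symbol; Rb1cc1, Becn1, Pik3c3, Atg12, Atg16l1, Map1lc3a and Epg5 did not. Where a gene has several windows the first in the table is shown, which applies to Nbr1 (2 windows) and Vmp1 (3 windows). Capitals mark matches on either strand to the E-box CACGTG, the AP-1 site TGANTCA, the antioxidant response core TGACNNNGC, the TATA box TATAAA, the CCAAT box and the GC box GGGCGG. Sqstm1 lies at chr11:50210771-50211070 (minus strand), Nbr1 at chr11:101552404-101552703 (plus), Calcoco1 at chr15:102722129-102722428 (minus), Gabarap at chr11:69991120-69991419 (plus), Vmp1 at chr11:86683787-86684086 (minus), Uvrag at chr7:99141095-99141394 (minus), Atg7 at chr6:114670846-114671145 (plus) and Atg4d at chr9:21265035-21265334 (plus).
Sqstm1: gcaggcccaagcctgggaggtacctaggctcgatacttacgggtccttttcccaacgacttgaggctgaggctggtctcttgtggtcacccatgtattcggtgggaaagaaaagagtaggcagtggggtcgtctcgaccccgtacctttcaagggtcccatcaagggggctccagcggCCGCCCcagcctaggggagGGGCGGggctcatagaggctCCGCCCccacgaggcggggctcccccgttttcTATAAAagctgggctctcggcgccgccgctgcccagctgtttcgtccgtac
Nbr1: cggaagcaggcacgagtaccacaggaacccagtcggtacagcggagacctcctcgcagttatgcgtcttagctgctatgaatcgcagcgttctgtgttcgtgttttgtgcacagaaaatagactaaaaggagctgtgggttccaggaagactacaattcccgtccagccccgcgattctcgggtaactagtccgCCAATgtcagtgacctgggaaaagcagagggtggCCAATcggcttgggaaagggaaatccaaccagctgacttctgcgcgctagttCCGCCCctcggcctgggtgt
Calcoco1: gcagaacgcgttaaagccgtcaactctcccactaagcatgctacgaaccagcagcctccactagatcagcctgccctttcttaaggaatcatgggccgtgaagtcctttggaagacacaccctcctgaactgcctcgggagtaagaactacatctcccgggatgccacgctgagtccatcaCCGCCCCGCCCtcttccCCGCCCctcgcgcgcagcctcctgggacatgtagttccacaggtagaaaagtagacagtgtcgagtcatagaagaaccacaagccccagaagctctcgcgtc
Gabarap: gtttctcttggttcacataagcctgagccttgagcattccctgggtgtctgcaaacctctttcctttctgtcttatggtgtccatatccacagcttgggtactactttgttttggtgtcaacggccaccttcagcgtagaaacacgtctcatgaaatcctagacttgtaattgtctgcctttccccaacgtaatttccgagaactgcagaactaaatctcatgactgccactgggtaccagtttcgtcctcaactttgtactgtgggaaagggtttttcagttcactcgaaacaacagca
Vmp1: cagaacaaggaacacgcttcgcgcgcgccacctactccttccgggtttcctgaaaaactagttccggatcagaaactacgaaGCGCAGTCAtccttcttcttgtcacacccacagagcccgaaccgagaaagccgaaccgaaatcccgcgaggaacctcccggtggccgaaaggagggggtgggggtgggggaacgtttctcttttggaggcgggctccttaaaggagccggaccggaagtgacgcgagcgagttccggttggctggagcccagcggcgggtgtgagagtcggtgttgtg
Uvrag: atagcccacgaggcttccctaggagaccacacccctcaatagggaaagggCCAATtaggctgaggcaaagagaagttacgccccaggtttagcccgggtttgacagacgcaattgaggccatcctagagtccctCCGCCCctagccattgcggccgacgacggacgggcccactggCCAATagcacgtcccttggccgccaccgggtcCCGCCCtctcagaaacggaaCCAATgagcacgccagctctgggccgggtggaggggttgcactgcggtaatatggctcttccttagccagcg
Atg7: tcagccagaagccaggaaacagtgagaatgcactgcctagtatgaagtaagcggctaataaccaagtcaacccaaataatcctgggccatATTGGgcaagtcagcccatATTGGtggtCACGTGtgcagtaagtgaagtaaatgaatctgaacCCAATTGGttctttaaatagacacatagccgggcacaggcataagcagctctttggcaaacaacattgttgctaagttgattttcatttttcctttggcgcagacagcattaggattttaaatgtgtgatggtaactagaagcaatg
Atg4d: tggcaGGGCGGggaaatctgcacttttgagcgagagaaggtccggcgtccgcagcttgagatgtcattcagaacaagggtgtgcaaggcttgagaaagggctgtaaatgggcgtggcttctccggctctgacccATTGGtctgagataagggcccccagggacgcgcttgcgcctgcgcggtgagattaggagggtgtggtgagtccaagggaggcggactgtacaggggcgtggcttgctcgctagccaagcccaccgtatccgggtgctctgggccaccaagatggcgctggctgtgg

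The Sqstm1 window held 3 GC boxes and a TATA box match that begins 1 base before the annotated start. The Calcoco1 window held 3 GC boxes, of which 2 overlap each other, and the Nbr1 window held 1 GC box and 2 CCAAT boxes. The Vmp1 window held 1 match to the antioxidant response core, 168 bases before the start. The Uvrag window held 3 CCAAT and 2 GC boxes, and the Atg7 window held 1 E-box 132 bases before the start and 4 CCAAT boxes, of which 2 overlap each other. The Atg4d window held 1 GC box and 1 CCAAT box, and the Gabarap window held 0 matches. The E-box was in 4 of 36 windows of the listed genes (those of Atg3, Atg5, Atg7 and Atg14), or 11.1%, beside 7.15% of all 32851 windows. The AP-1 site was in 0 of 36 windows, beside 7.81% of all windows. The antioxidant response core was in 6 windows (16.7%), beside 12.4%. These 6 windows belong to 4 of the 31 genes with a window: Atg13, Map1lc3b, Ulk2 and Vmp1, the last with 3 windows. GC boxes were in 21 of 36 windows (58.3%), beside 35.7%, CCAAT boxes in 9, beside 37.4% of all windows, and TATA boxes in 2 (5.56%), beside 13.6%. A match describes letters in these windows and not binding.

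The ATG8 family showed a different pattern in each member. Map1lc3a, 1 of the LC3 genes, measured 11.14, 11.17 and 12.09 in low sodium, against 10.34, 10.21 and 11.59 in normal sodium. The groups overlapped, with replicate 3 high in both media, while within each number the low-sodium array was higher, by 0.80, 0.96 and 0.49. Map1lc3a rose 1.68-fold (log2 difference 0.75 ± 0.48 SE), with an adjusted p in limma of 0.00591 in the replicate-3 fit, a range of 0.000244 to 0.165 over the alternatives to that fit, and 0.756 in the two-group fit. Its 1 other bright probe set differed by 0.49.

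Map1lc3b encodes the LC3 protein most often used as an autophagosome marker. It measured 11.60, 11.51 and 11.53 in low sodium and 11.48, 11.59 and 11.92 in normal sodium. The groups overlapped and the difference was -0.12 ± 0.19 (SE), whereas both other bright probe sets of the gene differed by 0.18 in the opposite direction. Its direction is therefore not settled by these probe sets.

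The GABARAP genes act beside LC3, in particular at late steps of autophagosome formation. Gabarap measured 13.35, 13.38 and 13.34 in low sodium, against 13.16, 13.04 and 13.27 in normal sodium. Its groups did not overlap, yet the difference of 0.20 ± 0.16 (SE) did not pass the replicate-3 fit (limma adjusted p = 0.147). Gabarapl1 measured 10.98, 11.21 and 12.27 in low sodium and 11.13, 11.11 and 11.38 in normal sodium. Its difference of 0.28 ± 0.37 (SE) was largest in replicate 3, where it was 0.89, beside -0.15 and 0.09 in replicates 1 and 2. Gabarapl2 measured 11.26, 11.13 and 11.52 in low sodium and 11.28, 11.26 and 11.40 in normal sodium, and its difference was -0.01 ± 0.18 (SE).

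**Figure D2:**
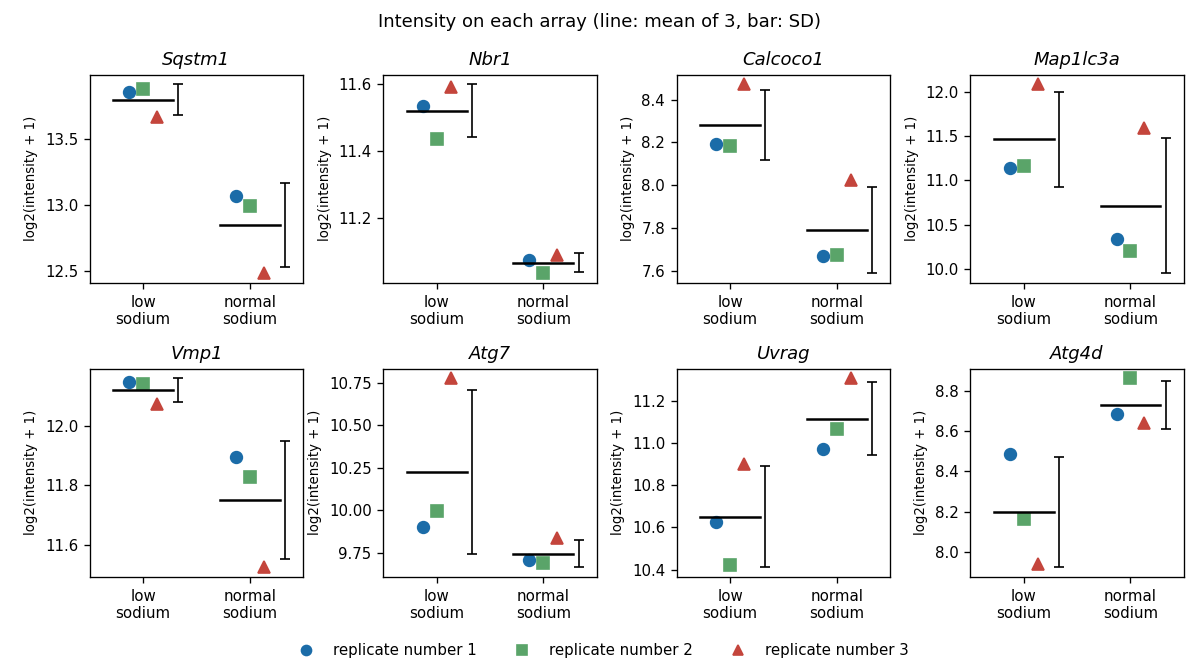
Log2(intensity + 1) on each array, on the vertical axis, for 8 genes in low sodium (left) and normal sodium (right); points are arrays coloured by replicate number, the line is the mean of 3 and the bar beside it the SD. Sqstm1, Nbr1, Calcoco1, Vmp1 and Atg7 show all low-sodium arrays above all normal-sodium arrays, Uvrag and Atg4d show the opposite, and in Map1lc3a both replicate 3 arrays lie above the others of their group.

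Of the 5 genes of the ULK initiation complex 0 rose and 0 fell, and the groups overlapped in all 5. Ulk1, the gene of the initiating kinase, measured 8.38, 8.49 and 8.87 in low sodium and 8.33, 8.38 and 9.21 in normal sodium. The difference was -0.06 ± 0.31 (SE), smaller than the spread of either group. Ulk2, a related kinase gene, measured 9.31, 9.33 and 9.88 in low sodium and 9.23, 9.06 and 9.52 in normal sodium. Its difference was 0.24 ± 0.24 (SE), with the same direction in each replicate number. The other bright probe sets of Ulk2 differed by 0.02 (-0.18 in replicate 3) and by 0.03 (-0.07 in replicates 1 and 2). The adaptor genes Atg13 and Atg101 differed by 0.16 and 0.19. Rb1cc1, which encodes the scaffold FIP200, differed by 0.35 and 0.12 in replicates 1 and 2 and by -1.09 in replicate 3, and its 1 other bright probe set differed by 0.07 over all arrays.

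In the lipid kinase complex 0 of 6 genes rose and 1 fell. Uvrag, whose product joins Becn1 in the form of the complex that acts on endosomes and on autophagosome maturation, measured 10.63, 10.42 and 10.90 in low sodium, against 10.97, 11.07 and 11.31 in normal sodium. Every low-sodium array was below every normal-sodium array. Uvrag fell by 0.46 ± 0.21 (SE) on the log2 scale, and normal-sodium cells had 1.38-fold the intensity of low-sodium cells. The adjusted p in limma was 0.0193 in the replicate-3 fit and 0.654 in the two-group fit. The call was lost when any 1 array of replicates 1 and 2 was left out (0.0644 to 0.106), while the difference stayed between -0.51 and -0.40. The call was also lost with the replicate number as a block and a trended prior (0.0696). Becn1, the gene of the scaffold Beclin 1, measured 11.49, 11.41 and 11.02 in low sodium and 11.35, 11.26 and 10.91 in normal sodium. Its difference of 0.14 ± 0.22 (SE) did not pass, although it was 0.14, 0.15 and 0.12 in the 3 replicate numbers. Atg14, which directs the complex to early autophagic membranes, the kinase gene Pik3c3, its regulatory subunit gene Pik3r4 and Ambra1 differed by 0.12, 0.03, -0.24 and -0.01 without passing.

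Among 6 genes of membrane supply and phagophore growth 1 rose and 0 fell. Vmp1, which encodes a lipid scramblase of the endoplasmic reticulum, measured 12.15, 12.14 and 12.07 in low sodium, against 11.90, 11.83 and 11.52 in normal sodium. The groups did not overlap, and the normal-sodium arrays varied more than the low-sodium arrays. Vmp1 rose 1.29-fold (log2 difference 0.37 ± 0.18 SE), with an adjusted p in limma of 0.0316 in the replicate-3 fit and 0.671 in the two-group fit. That call too was lost without any 1 array of replicates 1 and 2 (0.0773 to 0.123) and with the replicate number as a block and a trended prior (0.1), and the 1 other bright probe set differed by 0.21.

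Wipi1, a reader of the lipid that the Pik3c3 complex makes, measured 8.77, 8.89 and 7.74 in low sodium and 8.04, 8.40 and 7.77 in normal sodium. It was higher in low sodium by 0.73 and 0.50 in replicates 1 and 2 and differed by -0.03 in replicate 3, and it did not pass the replicate-3 fit (limma adjusted p = 0.291). With replicates 1 and 2 alone and a trended prior it did pass, as did Gabarap. The other bright probe sets of Wipi1 also differed in sign between replicates 1 and 2 (0.53 and 0.55) and replicate 3 (-0.34 and -0.73). Atg9a, the gene of the scramblase of small vesicles that seed the membrane, measured 9.92, 9.95 and 10.19 in low sodium and 10.21, 10.14 and 10.34 in normal sodium. It was lower in low sodium in each replicate number, with a difference of -0.21 ± 0.17 (SE) that did not pass. The lipid transfer genes Atg2a and Atg2b and the lipid reader gene Wipi2 differed by -0.14, -0.09 and -0.11.

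Of 10 conjugation genes 0 rose and 0 fell, beside 7.6% of all genes called. Differences were above 0 in 8 of the 10, beside 8951 of all 18193 genes and 4218 of the 9097 brighter genes. The direction was the same in all 3 replicate numbers in 70.0% (6 higher and 1 lower), beside 54.7% of the brighter 50% of genes. These shares were not tested. Atg7, the gene of the enzyme that activates both ubiquitin-like systems, measured 9.90, 9.99 and 10.78 in low sodium, against 9.71, 9.69 and 9.84 in normal sodium. The groups did not overlap, but the difference of 0.48 ± 0.28 (SE) was carried mostly by replicate 3, where it was 0.94, beside 0.19 and 0.30 in replicates 1 and 2. The other bright probe sets of Atg7 did not share this, at 0.32 in replicates 1 and 2 and 0.29 in replicate 3 for one and 1.30 and -0.20 for the other. Atg7 did not pass (limma adjusted p of 0.0992 in the replicate-3 fit and 0.729 in the two-group fit). Atg4d, of the protease family that trims LC3 and GABARAP proteins, went the other way, at 8.48, 8.16 and 7.94 in low sodium and 8.69, 8.86 and 8.64 in normal sodium. Its groups did not overlap, and its difference of -0.54 ± 0.21 (SE) was the lowest of the 37 but did not pass (0.0862 and 0.610). The related protease genes Atg4a, Atg4b and Atg4c differed by 0.23, -0.04 and 0.10.

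Atg5 and Atg16l1, whose products with that of Atg12 form the complex that places LC3 on the membrane, were close to even between the media. Atg5 measured 9.58, 9.71 and 10.03 in low sodium and 9.81, 9.63 and 9.85 in normal sodium, a difference of 0.01 ± 0.20 (SE), and its other bright probe sets differed by -0.21 and -0.18. Atg16l1 measured 9.42, 9.54 and 9.81 in low sodium and 9.28, 9.38 and 9.89 in normal sodium, a difference of 0.07 ± 0.24 (SE). Atg12 differed by 0.23, 0.46 and 0.65 in replicates 1, 2 and 3 without passing (limma adjusted p = 0.0737 in the replicate-3 fit). Atg10, which encodes the enzyme that joins Atg12 to Atg5, measured 7.91, 7.84 and 7.23 in low sodium and 7.37, 7.29 and 7.19 in normal sodium. It was higher by 0.54 and 0.55 in replicates 1 and 2 and by 0.04 in replicate 3. Atg3, the enzyme gene for the lipid conjugation of LC3, differed by 0.08.

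Of the 2 genes for the meeting of autophagosomes with lysosomes, 0 rose and 0 fell. Stx17, the SNARE gene of completed autophagosomes, measured 8.41, 8.68 and 8.80 in low sodium and 8.42, 8.15 and 8.37 in normal sodium. It was even between the media in replicate 1 and higher in low sodium by 0.54 and 0.43 in replicates 2 and 3. Epg5, a tethering factor gene, differed by 0.24 and 0.13 in replicates 1 and 2 and by -0.35 in replicate 3.

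Set side by side, the median difference was 0.49 in 3 cargo receptor genes, 0.09 in 10 conjugation genes and 0.16 in 5 initiation genes, beside 0.10 in all 37 genes and -0.01 in all genes tested. In replicates 1 and 2 these medians were 0.51 for receptors, 0.11 for conjugation and 0.17 for initiation, and in replicate 3 they were 0.50, 0.12 and -0.12. The initiation median thus changed sign between the replicates, while that of receptors kept it. Leaving out 1 array moved the conjugation median to between -0.05 and 0.24, the initiation median to between -0.01 and 0.29 and that of all 37 genes to between -0.01 and 0.25, in each case lowest without the low-sodium and highest without the normal-sodium array of replicate 3. The receptor median stayed between 0.42 and 0.61, and averaging the probe sets of each gene gave 0.395 for receptors and 0.22 for conjugation. The ATG8 family had a median of 0.20, the lipid kinase complex one of 0.01 and membrane supply genes one of -0.10, and each of these 3 changed sign when single arrays were left out. All these leave-out medians are differences of group means with no term for replicate 3. Without 1 array of replicate 3, only 1 medium still holds a replicate 3 array. The part of this imbalance in the changes was not tested. Medians over a few genes are a description, and the difference between roles was not tested, since genes of 1 role on the same arrays are not replicates. In 18 of the 37 genes another bright probe set was available, and it kept the direction of the probe set used in 13 of them. In the other 5, Rb1cc1, Wipi2, Atg4b, Atg5 and Map1lc3b, at least 1 went the opposite way.

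**Figure D3:**
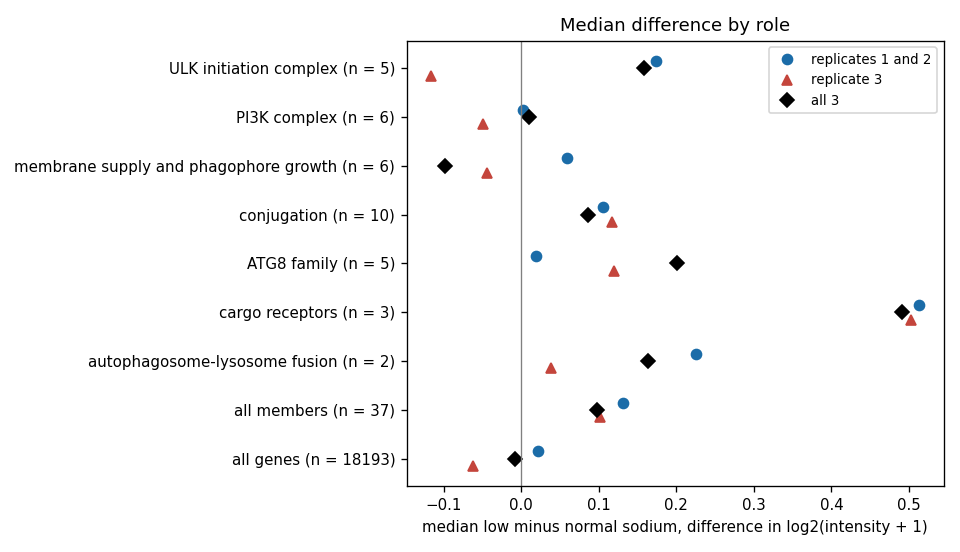
Median low minus normal sodium difference in log2(intensity + 1), on the horizontal axis, over the measured genes of each role, of all 37 members and of all 18193 genes; symbols stand for replicates 1 and 2, replicate 3 and all 3 together. Cargo receptors lie near 0.5 in both sets of arrays, and the initiation median lies on opposite sides of 0.

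Other genes of the pathway were read from 4 lists, of which 71 of 75 genes were measured. The replicate-3 fit called 7 of the 71 (9.86%), 6 of them higher and 1 lower, beside 7.6% of all genes and 14.8% of the brighter 50%. The two-group fit called 0, with 8 at an unadjusted p under 0.05, beside 8.15% of all genes at that p. Among 24 other core and accessory autophagy genes 3 rose and 1 fell, and the groups did not overlap in 11 (45.8%), 10 of them higher in low sodium, beside 17.5% of all genes and 26.3% of the brighter 50%. Their median difference was 0.19. Tex264, a receptor gene for autophagy of the endoplasmic reticulum, measured 10.57, 10.56 and 10.69 in low sodium, against 9.85, 9.94 and 10.10 in normal sodium. It rose by 0.65 ± 0.17 (SE) with an adjusted p in limma of 0.00493 in the replicate-3 fit and 0.457 in the two-group fit. Trp53inp2, whose product binds ATG8 proteins, measured 9.38, 9.52 and 10.94 in low sodium and 8.56, 8.53 and 9.22 in normal sodium. It rose by 1.18 ± 0.49 (SE), and the difference was 1.73 in replicate 3 beside 0.91 in replicates 1 and 2. Zfyve1, the gene of a marker of the membrane platform where autophagosomes start, rose by 0.70. Atg9b, a relative of Atg9a, fell by 0.82 on the log2 scale. Rubcn, which encodes an inhibitor of the Uvrag form of the lipid kinase complex that acts in phagocytosis, differed by 0.58, and the tethering factor gene Tecpr1 by 0.56, neither of them passing.

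Among 18 other selective receptor and mitophagy genes 2 rose and 0 fell, with a median of 0.11, beside 0.49 in the 3 cargo receptor members. Their groups did not overlap in 27.8% (3 higher and 2 lower in low sodium), beside 17.5% of all genes and 26.3% of the brighter 50%. Retreg1 and Rtn3, both receptor genes for autophagy of the endoplasmic reticulum, rose by 0.59 and 0.38. Retreg1 measured 12.12, 12.13 and 12.25 in low sodium, against 11.76, 11.75 and 11.21 in normal sodium, and Rtn3 measured 12.12, 12.07 and 12.15, against 11.83, 11.74 and 11.61. In both genes the groups did not overlap. Bcl2l13, a mitophagy receptor gene, differed by -0.31 and did not pass, and Stbd1, a glycogen receptor gene, was dim in both media. Of 19 genes of the mTORC1, TSC and Rag arm, which restrains autophagy when nutrients are plentiful, 1 rose and 0 fell, with a median of 0.13. The 1 was Fnip1, a partner of folliculin, at 0.48. Sesn2, an amino acid sensor gene that restrains mTORC1, Rptor, the gene of the mTORC1 scaffold, and Fnip2 differed by 0.60, 0.68 and 0.85 without passing. Of 10 genes of AMPK and its upstream kinases 0 rose and 0 fell, with a median of -0.05, and the kinase gene Stk11, which activates AMPK, differed by -0.29. The catalytic subunit gene Prkaa2 was dim in both media, and Prkag1 and Camkk2 differed by -0.31 and -0.21. Without any 1 array of replicates 1 and 2, the replicate-3 fit still called 2 of the 71 genes, Tex264 and Trp53inp2. In these settings it called 373 to 463 of all 18193 genes, beside 1382 with all arrays. The fall in calls was thus not confined to the 4 lists.

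**Figure D4:**
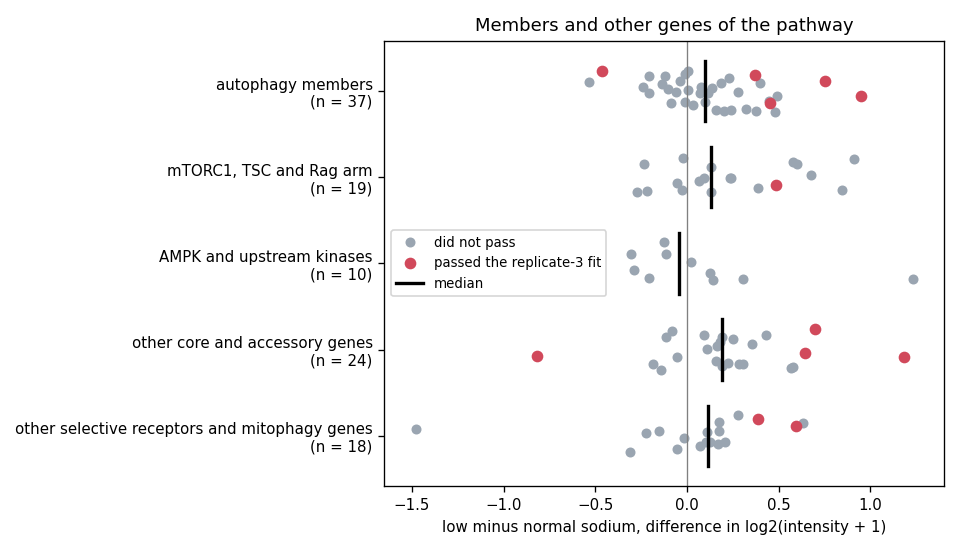
Low minus normal sodium difference in log2(intensity + 1), on the horizontal axis, for 37 autophagy members and the 71 measured genes of 4 further lists; each point is a gene, coloured by whether it passed the replicate-3 fit, and the black bar is the median of the list. The medians lie between -0.05 and 0.19, and 5 members and 7 other genes passed.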

How the data were processed

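Biotin-labelled total RNA from 6 RAW264.7 cultures was hybridised to Affymetrix mouse arrays, per the labels. The authors deposited linear intensities of each probe set. The submitters' processing notes name Partek, with no version, and how probes were summarised is not given in the sources used. Each array had a mean of 500.0 over intensities from percentile 2 to percentile 98. Of 45101 probe sets 64 controls were left out, and 34945 of the 45037 others carried 1 gene in the platform annotation, 932 several and 9160 none. Entrez identifiers of 34741 were renamed through RefSeq (GRCm38.p6). The deposited values were analysed as log2(intensity + 1). Low minus normal sodium was fitted with limma 3.58.1 in R 4.3.3 (lmFit, eBayes, two-sided) on 18193 genes, as a two-group fit with a constant prior and, as an alternative, with a replicate 3 term and a trended prior. The fitting code was tested on simulated arrays, which does not bear on the choice between these fits. The members, lists and alternatives were chosen with earlier results of these data known. All members are named; array values are given for the 14 with the smallest p in the two-group fit, for those called by either fit and for a fixed set of 14 central genes, and of each further list the 4 genes with the smallest p and those called. Precision is limited by having 3 arrays in each group. P-values of the two-group fit measure the spread between these cultures. Those of the replicate-3 fit rest on the spread left once replicate 3 has its own term. Its trended prior also draws that spread toward the spread of genes of similar intensity. For Map1lc3a the SE was 0.098 in the replicate-3 fit, 0.134 in the same model with a constant prior and 0.48 in the two-group fit. For Sqstm1 the SE was 0.084, 0.125 and 0.22, in that order.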

Additional observations from a re-analysis of the deposited data

How the results depend on the processing

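The two-group fit called 1 gene. It called 0 with quantile normalization, median centring, the replicate block, replicates 1 and 2 alone or all probe sets tested, 2 with the replicate 3 term, 4 with a pseudocount of 16, 16 with a filter at the 50th percentile, 22 with a robust trended prior, 40 with a trended prior, 544 with the replicate block and a trended prior, 1382 in the replicate-3 fit, 2705 in replicates 1 and 2 with a trended prior, and 0 to 3 without single arrays. The replicate-3 fit called 373 to 2682 genes without single arrays. Without any 1 array of replicates 1 and 2 it called 373 to 463. Of the autophagy genes, 0 were called by the two-group fit, 3 with the replicate block and a trended prior (Sqstm1, Nbr1 and Map1lc3a, beside 2.99% of all genes), 5 by the replicate-3 fit, 0 by it with a constant prior, 7 in replicates 1 and 2 with a trended prior, and 2 to 7 without single arrays; the 2, Sqstm1 and Map1lc3a, were the same without any 1 array of replicates 1 and 2. Of the other pathway genes the two-group fit called 0, and the replicate block with a trended prior called 2 (2.82%, beside 2.99% of all genes). The replicate-3 fit called 7, and 0 with a constant prior. In replicates 1 and 2 with a trended prior 16 were called (22.5%), beside 14.9% of all genes and 28.3% of the brighter 50%. Without single arrays the replicate-3 fit called 2 to 18. The median of the cargo receptors was 0.395 with probe sets averaged per gene, an average that takes in the dim probe set of Calcoco1 (-0.20). Without single arrays it was 0.42 to 0.61, and the cause of that change was not tested. Same-numbered arrays of the media deviated from their group means with correlations of 0.10, 0.08 and 0.24 over all genes and 0.49, 0.48 and 0.61 over the brighter 50%, which holds all 37 members. Arrays numbered 1 and 2 correlated as much across numbers (0.09 and 0.10 over all genes, 0.51 and 0.48 over the brighter 50%). Deviations within a group sum to 0, so a distinct replicate 3 makes arrays 1 and 2 deviate alike. These correlations therefore cannot show whether the numbers pair arrays 1 and 2. Since 1 pair was under 0.1 over all genes, the numbers were not taken to pair the arrays. Differences per replicate number are a description. Uvrag and Vmp1 lost their calls with the replicate block and a trended prior. Of the 13 settings on 6 arrays, only quantile normalization, median centring, the pseudocount of 16 and averaging of probe sets could change a difference. They changed the sign in 1, 3, 0 and 5 of the 37 genes, in that order. The other settings leave each difference as it is and could not change a sign. Across these settings 29 genes kept their direction, and the 8 that did not were Ambra1, Atg12, Atg4b, Atg5, Epg5, Map1lc3b, Pik3c3 and Rb1cc1. Of the 37 differences 8 changed sign with replicates 1 and 2 alone, and 2 to 9 without single arrays, with 9 without low-sodium replicate 3, 7 without normal-sodium replicate 3 and 6 without low-sodium replicate 1. These counts too come from differences with no term for replicate 3.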
